A study of Homo sapiens with 3 samples.

Results

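The genes described here are 36 members of the Fanconi anaemia pathway and of homologous recombination, out of 19974 protein-coding genes on chromosomes 1 to 22 and X. They were taken as a named list, and every MYC peak whose summit lay inside the RefSeq span of a member (GRCh38.p14) or within 5000 bp of it was assigned to that gene. The cells were parental U2OS, a line from a human osteosarcoma, with no further treatment given in the labels. MYC was profiled in them by ChIP-Rx, in which chromatin of another species is added before the immunoprecipitation as a reference. The anti-MYC group held 2 IP libraries, called biological replicates in the series design, and the control group was 1 input library without antibody. All libraries carried chromatin of mouse NIH3T3 fibroblasts, added at 10% of the cells.

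The values are those of 1 peak list of 9818 peaks for the whole series, so no value has a replicate error, no depth is known and no test was run. Every fold given for a peak is the enrichment over control that the authors deposited for its summit, a linear ratio, and every −log10 q-value is theirs as well. These folds ran between 2.18 and 119 over the whole list, with a median of 7.78.

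Fanconi proteins repair DNA in which both strands are covalently linked. A nuclear core complex attaches ubiquitin to the FANCD2 and FANCI pair, nucleases then cut the link out, and the resulting break is repaired by homologous recombination, in which BRCA2, PALB2 and a group of paralogous proteins (RAD51B, RAD51C, RAD51D, XRCC2 and XRCC3) help the broken strand pair with an intact copy. The MRN complex senses broken ends and activates the ATM kinase, while ATR responds to stalled replication forks. Cells need the whole pathway mainly in S and G2 phase. MYC binds DNA together with MAX, most tightly at the E-box CACGTG and its variant CACGCG, and mostly at promoters of active genes.

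A MYC peak was assigned to 31 of the 36 genes, against 47.7% of all protein-coding genes under the same rule. The members are longer than most genes, with a median length of 74388 bp against 24170 bp, and a span rule gives longer genes more room for a summit. A summit within 1000 bp of an annotated end of the gene does not depend on length, and 27 of 36 members (75%) had one, against 37.6% of protein-coding genes. Among the stronger 50% of all peaks by −log10 q, 18 of 36 members had a summit at an end, against 21.3% of protein-coding genes. RefSeq promoter entries give the start and strand of 33 members, and 27 of these had a summit within 1000 bp of a listed start, against 41.5% of the 15812 protein-coding genes with such an entry. FANCI, NBN and RAD54B have no entry. A peak at a listed start or an annotated end is called the gene's own peak below, and 29 of 36 members had one, against 40.3% of protein-coding genes. Whether the genes of the background are expressed in U2OS cells was not analysed here.

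The promoters that carried an E-box motif are shown first, since they are where the MYC summit and a known MYC sequence can be compared base by base. Each line gives the 150 bases before and 30 bases from a listed start, in the direction of transcription, from RefSeq on GRCh38.p14, with CACGTG and with CACGCG or its reverse complement CGCGTG in capitals.
FANCC (chr9:95317680-95317859, minus strand): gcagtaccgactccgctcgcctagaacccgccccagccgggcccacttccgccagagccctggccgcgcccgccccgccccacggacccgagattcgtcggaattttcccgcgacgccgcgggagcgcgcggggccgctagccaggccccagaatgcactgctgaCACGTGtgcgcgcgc
BRCA2 (chr13:32315358-32315537, plus strand): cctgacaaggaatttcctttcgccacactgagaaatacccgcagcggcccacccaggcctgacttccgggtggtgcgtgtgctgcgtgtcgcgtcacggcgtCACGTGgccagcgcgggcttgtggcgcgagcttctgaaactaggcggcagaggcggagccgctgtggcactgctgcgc
RAD50 (chr5:132556827-132557006, plus strand): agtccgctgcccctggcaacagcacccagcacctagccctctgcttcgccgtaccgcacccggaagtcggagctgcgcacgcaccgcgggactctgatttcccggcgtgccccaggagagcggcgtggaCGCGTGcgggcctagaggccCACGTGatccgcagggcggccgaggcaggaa
PALB2 (chr16:23641281-23641460, minus strand): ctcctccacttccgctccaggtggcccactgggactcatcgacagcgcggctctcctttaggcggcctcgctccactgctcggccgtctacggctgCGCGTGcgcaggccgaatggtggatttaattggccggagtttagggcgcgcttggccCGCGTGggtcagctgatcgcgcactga
ATM (chr11:108222917-108223096, plus strand): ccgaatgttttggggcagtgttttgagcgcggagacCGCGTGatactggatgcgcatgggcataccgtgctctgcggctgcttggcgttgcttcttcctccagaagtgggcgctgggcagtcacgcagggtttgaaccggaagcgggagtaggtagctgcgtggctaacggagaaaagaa
RBBP8 (chr18:22933717-22933896, plus strand): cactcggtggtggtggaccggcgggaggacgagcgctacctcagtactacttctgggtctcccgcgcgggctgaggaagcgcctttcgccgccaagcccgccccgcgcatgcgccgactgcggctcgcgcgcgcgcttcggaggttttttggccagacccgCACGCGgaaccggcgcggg
XRCC2 (chr7:152676112-152676291, minus strand): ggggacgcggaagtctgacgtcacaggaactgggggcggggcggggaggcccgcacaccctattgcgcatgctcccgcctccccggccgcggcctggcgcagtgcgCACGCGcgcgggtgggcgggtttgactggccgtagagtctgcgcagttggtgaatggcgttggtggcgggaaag

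In BRCA2 the CACGTG began 48 bases before the start and the MYC summit lay 6 bases from it. In FANCC it began 15 bases after the start, 8 bases from the summit, and in RAD50 it began 1 base before the start, also 8 bases from the summit. All 3 members with CACGTG in the window from 250 bases before to 50 after a start therefore had their summit within 20 bases of it. Among the other protein-coding genes with a start peak and a CACGTG near it, 327 of 924 (35.4%) did, at a median of 46 bases. The comparison rests on 3 members and was not tested. PALB2 carried the reverse complement CGCGTG in 2 places, and these lay 1 and 58 bases from the summit. RBBP8 had a CACGCG or CGCGTG near each of its 2 listed starts, and the summit fell on 1 of them and 551 bases from the other. This variant lay 28 bases from the summit in RAD50, which has both forms without overlap, 73 bases in ATM and 255 bases in XRCC2. It lay within 20 bases of the summit in 2 of 5 members and in 413 of 1586 other protein-coding genes (26%). The median distances were 28 and 92 bases.

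CACGTG was found in 3 of 33 members (9.09%) and in 10.9% of all protein-coding genes with a promoter entry. Each gene was counted once over all its listed starts, so genes with more starts had more bases searched. CACGCG, searched on both strands, was in 5 members (15.2%) and in 18.1% of all. Among genes with a start peak, 7 of 27 members (25.9%) and 36.2% of all genes held either form. The own peaks of these 7 members had a median fold of 14.5, between 4.93 at XRCC2 and 18.5 at ATM, while the 20 members with neither form had a median of 7.11. In the other protein-coding genes with a start peak the same medians were 9.68 with either form and 7.87 with neither. The wider gap in the members rests on 7 genes and was not tested.

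Other promoter elements were counted in the same windows. CCAAT, the letters bound by NF-Y, stood in 14 of 33 members (42.4%) and in 42.1% of all protein-coding genes with an entry, on either strand. The GC box GGGCGG, read by SP1 and related factors, stood in 24 members (72.7%), against 64.2% of all these genes and 79.4% of those with a start peak. Member promoters had a median GC content of 63.7%, against 62.3% over all protein-coding genes and 65.3% over those with a start peak. No match in this window says nothing about sites elsewhere in a peak, and 14 of the 27 start-peak summits fell inside a window at all.

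The next promoters are those of ATR, which had the highest own peak without either form, and of 4 members with no peak. None of them holds CACGTG or CACGCG in these bases, so they have no capitals.
ATR (chr3:142578704-142578883, minus strand): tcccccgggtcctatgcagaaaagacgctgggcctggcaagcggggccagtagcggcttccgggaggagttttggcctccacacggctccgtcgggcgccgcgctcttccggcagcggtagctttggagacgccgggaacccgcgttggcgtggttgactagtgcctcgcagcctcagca
BRCA1 (chr17:43125335-43125514, minus strand): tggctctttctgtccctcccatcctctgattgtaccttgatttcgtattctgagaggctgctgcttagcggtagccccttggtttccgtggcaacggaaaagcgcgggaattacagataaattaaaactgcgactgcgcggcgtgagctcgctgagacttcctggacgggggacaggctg
FANCD2 (chr3:10026287-10026466, plus strand): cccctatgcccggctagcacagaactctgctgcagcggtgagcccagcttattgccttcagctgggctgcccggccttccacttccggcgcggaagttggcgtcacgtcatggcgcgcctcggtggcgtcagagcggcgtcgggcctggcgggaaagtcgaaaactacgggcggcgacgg
EXO1 (chr1:241848054-241848233, plus strand): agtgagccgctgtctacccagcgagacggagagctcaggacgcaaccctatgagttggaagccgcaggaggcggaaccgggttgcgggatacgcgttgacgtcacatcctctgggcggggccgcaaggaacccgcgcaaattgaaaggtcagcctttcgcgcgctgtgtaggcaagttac
FANCB (chrX:14873040-14873219, minus strand): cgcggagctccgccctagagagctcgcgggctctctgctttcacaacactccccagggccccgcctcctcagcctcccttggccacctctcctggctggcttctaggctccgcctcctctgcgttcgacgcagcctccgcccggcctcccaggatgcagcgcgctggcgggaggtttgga

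**Figure D1:**
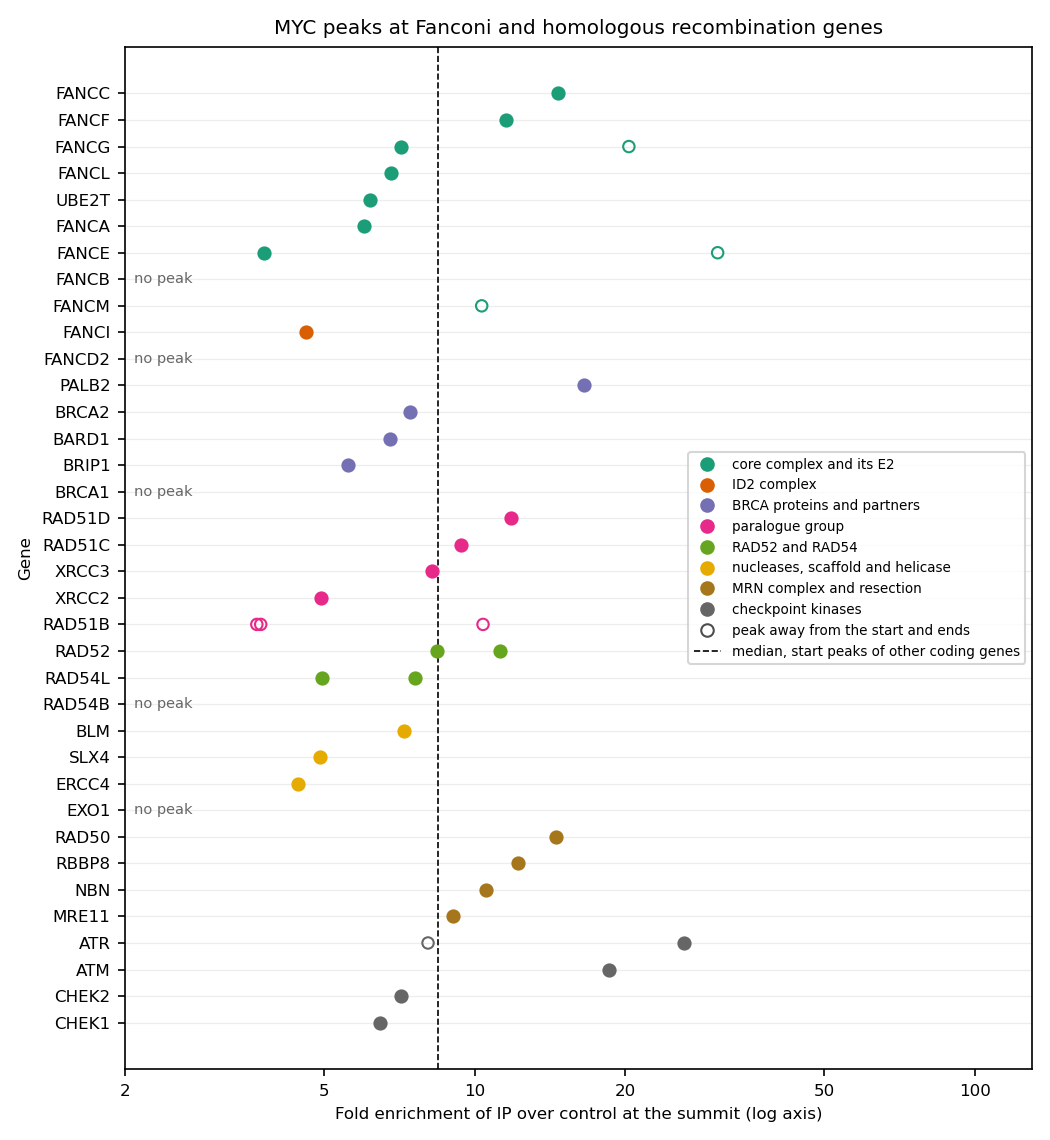
Fold enrichment at the summit of each of the 38 assigned peaks (log axis), 1 line per gene, ordered by role. Filled points are peaks at a listed start or an annotated end, open points lie elsewhere, and the dashed line is the median start-peak fold of the other protein-coding genes, 8.44. Among the filled points ATR and ATM lead, 5 genes have no peak, and the highest open point belongs to FANCE, at the neighbouring RPL10A.

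The plot of folds by gene shows all 38 assigned peaks. Of the members, 25 had 1 peak, 5 had 2 and RAD51B had 3. Taking the strongest own peak of each of 29 genes, folds lay between 3.79 and 26.2. Their median was 7.42, with quartiles of 6.17 and 11.5. The start peaks of the 6533 other protein-coding genes had a median of 8.44, with quartiles of 5.96 and 12.8.

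Among the core complex genes, 7 of 9 had an own peak, at a median fold of 6.81. FANCC, a subunit that bridges to FANCE, was highest with 14.6 (chr9:95316841-95317993), and its peak was 1153 bp wide. FANCF, an adaptor subunit encoded in a gene of only 3291 bp, followed with 11.5 (chr11:22625076-22626233), its summit 19 bp inside the start. The other own peaks of the complex were lower. FANCG had a fold of 7.11 (chr9:35079532-35080294), FANCL, the ubiquitin ligase subunit, 6.81 (chr2:58240873-58241612), and FANCA 6.0 (chr16:89816353-89817095). UBE2T, the E2 enzyme that works with FANCL, had 6.17 (chr1:202341609-202342227), with the summit 1 bp from the start. FANCE had the lowest own peak of all members, 3.79 (chr6:35452231-35452800).

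FANCE and FANCG each also took a much higher peak of a neighbour under the 5000 bp rule. The second FANCE peak had a fold of 30.6 (chr6:35467967-35469279) and lay at the start of RPL10A, a ribosomal protein gene, 1397 bp beyond the end of FANCE. The second FANCG peak had a fold of 20.3 (chr9:35071650-35072735) and lay at the start of VCP, an AAA ATPase gene. FANCM, the translocase that anchors the core complex to DNA, had no own peak; its assigned peak (fold 10.3, chr14:45133966-45134664) lay 1717 bp upstream at the start of FKBP3. FANCB, a core subunit encoded on chromosome X, had no peak, and the nearest summit was 659610 bp from it.

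Of the pair that the core complex ubiquitinates, FANCI had an own peak and FANCD2 had none. The FANCI peak had a fold of 4.60 (chr15:89243674-89244695), 84 bp from an annotated end, and ranked 8560th of the 9818 peaks by fold. The summit nearest to FANCD2 lay 13580 bp beyond the gene and the one nearest to its start lay 39600 bp away.

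BRCA1 was the member of the BRCA group without a peak. RefSeq lists starts at 43125364 and 43170327 on the minus strand of chromosome 17, and the nearest summits to them were 103914 and 148877 bp away. No summit lay within 22845 bp of the annotated gene. BARD1, its partner in a ubiquitin ligase, did have an own peak, with a fold of 6.75 (chr2:214809040-214809811), shared with the start of the noncoding gene SNHG31. PALB2, which joins BRCA1 to BRCA2, was the highest of the group with 16.5 (chr16:23640801-23641699). BRCA2 had 7.42 (chr13:32315301-32316252) and BRIP1, a helicase that binds BRCA1, had 5.58 (chr17:61862956-61863723).

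All 5 genes of the paralogue group, which act with BRCA2 in strand pairing, had an assigned peak, and 4 had an own peak. RAD51D had a fold of 11.8 (chr17:35119262-35120096), RAD51C 9.40 (chr17:58692250-58692964), XRCC3 8.20 (chr14:103715001-103715524) and XRCC2 4.93 (chr7:152675549-152676321). The folds of these 4 spread around the median of other genes. RAD51B differed in position, since none of its 3 peaks lay near a start. The summit nearest to a listed start, 127812 bp upstream, was not assigned to this gene. RAD51B is 863318 bp long, and its assigned peak nearest to a listed start lay 635520 bp downstream. Its peaks inside the span had folds of 3.73 (chr14:68458878-68459381) and 10.4 (chr14:68577783-68578231), and whether they are exonic or intronic was not analysed here. The last had a fold of 3.67 (chr14:68685381-68685961), 2567 bp beyond the gene at the start of RAD51B-AS1.

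RAD52, an annealing factor, and RAD54L, a DNA translocase that acts in strand pairing, each had a pair of own peaks. The RAD52 peaks lay at separate listed starts, with folds of 8.40 (chr12:949031-950065) and 11.3 (chr12:990361-991628), and the higher one also lay at the start of ERC1. The RAD54L peaks had folds of 7.59 (chr1:46246865-46247326), 639 bp upstream of the start, and 4.94 (chr1:46247589-46247974), 31 bp inside it. RAD54B, a paralogue of RAD54L, had no peak within 78597 bp of the gene.

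Of the nuclease, scaffold and helicase genes, 3 had an own peak below the 8.44 median of other start peaks and EXO1 had none. BLM, the Bloom syndrome helicase, had a fold of 7.23 (chr15:90716750-90717790). SLX4, a scaffold for several nucleases, had 4.90 (chr16:3611345-3611934), and ERCC4, the catalytic subunit of the XPF-ERCC1 nuclease, had 4.44 (chr16:13919729-13920470). For EXO1, an exonuclease that resects broken ends, the nearest summit lay 207456 bp from the gene. The median of the 3 own peaks was 4.90.

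The 3 MRN genes and RBBP8 had own peaks above that median. RAD50, the ATPase of the MRN complex, had a fold of 14.5 (chr5:132556743-132557632) and the highest −log10 q of all own peaks, 234. RBBP8, which starts resection with MRN, had 12.2 (chr18:22933048-22934296), NBN had 10.5 and the nuclease MRE11 had 9.05 (chr11:94493198-94494265). The summits of MRE11 and RBBP8 lay 283 and 16 bp from a listed start but 18851 and 19744 bp from the ends of the annotated spans, so a count on gene ends alone misses both.

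All 4 checkpoint kinase genes had an own peak, with higher folds at ATR and ATM than at CHEK2 and CHEK1. The ATM and CHEK2 peaks also lay at the starts of NPAT and HSCB, so they cannot be assigned to the kinase genes alone. ATR had the highest own peak of the 36 genes, a fold of 26.2 (chr3:142578298-142579256), ranked 347th of 9818 by fold. ATM followed with 18.5 (chr11:108222493-108223369), ranked 834th. Their substrates were lower: CHEK2 had 7.12 (chr22:28741538-28742533) and CHEK1 6.48 (chr11:125625435-125626536). A second peak assigned to ATR (fold 8.06, chr3:142447986-142448298) lay 1143 bp beyond the far end of the gene, at the start of XRN1.

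**Figure D2:**
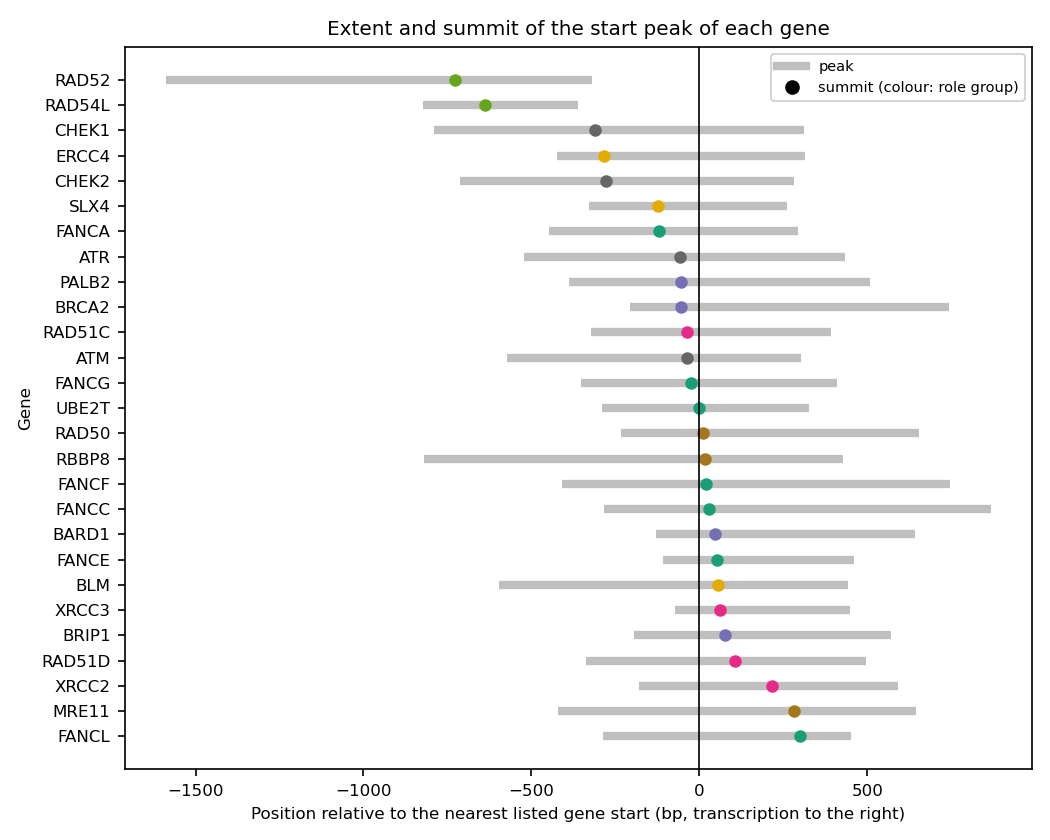
Extent (grey bar) and summit (point, coloured by role as in the plot of folds by gene) of the strongest start peak of 27 genes, in bp from the nearest listed start with transcription to the right. Most summits sit close to the start, and those of RAD52 and RAD54L lie 728 and 639 bp upstream of the nearest listed start. The RAD52 summit is still inside the annotated gene. Both genes also have a weaker start peak, not drawn, with its summit 96 bp (RAD52) and 31 bp (RAD54L) from a listed start.

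Start peaks were chosen by a summit within 1000 bp of a listed start, and inside that limit most member summits lay much closer. The 7 of 38 assigned peaks away from listed starts and annotated ends are not counted here. The plot of peak extents shows that 16 of 27 start-peak summits (59.3%) lay within 100 bp of a listed start, at a median of 58 bp, against 43% and 129 bp in the 6533 other protein-coding genes with a start peak. Within 300 bp the shares were 88.9% of members and 78.2% of other genes. Summits fell on either side of the start, with 13 of 27 members (48.1%) and 41.1% of other genes having theirs downstream. These differences were not tested, and peaks of genes that share a promoter are not independent.

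Of the 27 start peaks, 9 (33.3%) also lay within 1000 bp of a start of another protein-coding gene, against 24.8% of other genes with a start peak. In all 9 the other start was on the opposite strand, which held for 23% of the other genes. The closest of these pairs were MRE11 with ANKRD49, 140 bp between starts, BRCA2 with ZAR1L, 145 bp, and SLX4 with DNASE1, 154 bp. PALB2 and DCTN5, a dynactin subunit gene, lay 156 bp apart, and CHEK2 and HSCB, an iron-sulfur cluster chaperone gene, 212 bp apart. The starts of XRCC3 and ZFYVE21 were 359 bp apart, those of ATM and NPAT, a histone gene activator, 429 bp, those of RAD51C and IGBP1C 528 bp, and those of RAD52 and ERC1 1182 bp. The summits of FANCF, RAD50 and RAD51C also lay within 1000 bp of an annotated end of GAS2, IL5 and TEX14, and those of BLM and RBBP8 within that distance of the noncoding CRTC3-AS1 and RBBP8-AS1. The RBBP8 summit was also that near to MIR4741. The ERCC4 and CHEK1 summits were that near to LOC124903647 and LOC118567325, which are not annotated as protein-coding. A peak between such starts cannot be assigned to a single gene of the pair. The SLX4 summit lay 30 bp from the start of DNASE1 and 124 bp from its own, and the CHEK2 summit 66 bp from that of HSCB and 278 bp from its own. The summit of the higher RAD52 peak lay 454 bp from the start of ERC1 and 728 bp from the nearest listed RAD52 start. It was still inside the annotated RAD52 gene, 353 bp from its end.

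**Figure D3:**
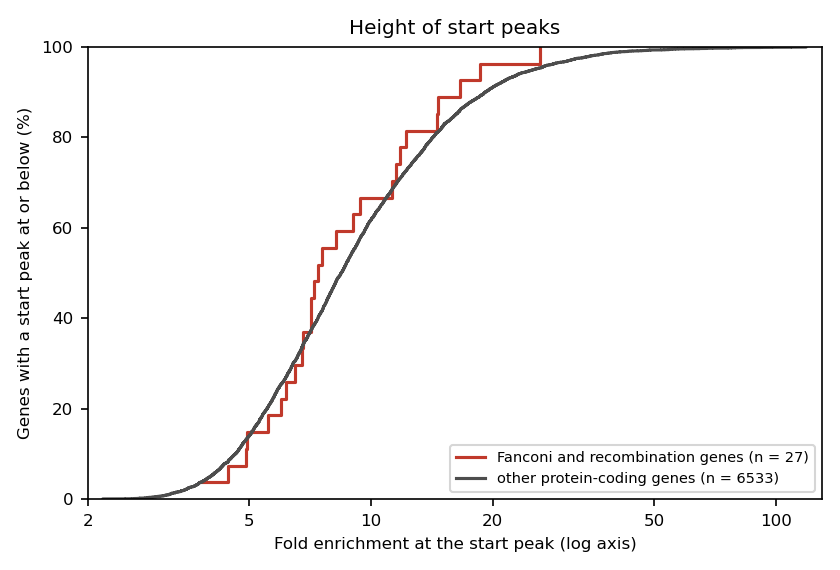
Cumulative share (%) of genes with a start peak at or below a given fold (log axis), for 27 Fanconi and recombination genes and 6533 other protein-coding genes. Both curves climb steeply between folds of 5 and 20, and no member exceeds 26.2.

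The members' start peaks covered much of the range of other start peaks, without its top. Their 27 start peaks had a median fold of 7.42 with quartiles of 6.32 and 11.7, and the 6533 other genes had a median of 8.44 with quartiles of 5.96 and 12.8, as the cumulative plot of folds shows. A fold of 20 or more was reached by 1 of 27 members (3.7%) and by 8.94% of other genes. By −log10 q the members stood slightly higher, with medians of 60 against 56.9, and 19 of 27 (70.4%) against 57.3% lay in the stronger 50% of the list. The median width was 835 bp in members and 841 bp in other genes.

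Further genes of the same pathway, taken from a list of 58, had a summit at an annotated end in 44 cases (75.9%), at a median fold of 8.41. The 5 with the highest −log10 q were RAD1, a checkpoint clamp gene that shares its peak with BRIX1 (fold 38.4), RMI1, a BLM partner that shares its peak with HNRNPK (27.1), RIF1, which limits resection (19.0), DNA2, a resection nuclease (17.9), and EME1, a nuclease subunit that shares its peak with MRPL27 (14.4). Of the recombination mediator genes 9 of 12 had such a summit, of the further Fanconi proteins 7 of 10, of the BRCA1-A complex 3 of 5, of the resolution proteins 11 of 13 and of damage signalling 14 of 18. Genes of other repair routes were at 44 of 53 (83%) with a median fold of 9.44, beside 27 of 36 and 7.23 for the members' end peaks. Within them end joining had 9 of 10, mismatch repair 7 of 7, nucleotide excision repair 13 of 17 and base excision repair 15 of 19. The bar plot of shares sets these counts against the 37.6% of all protein-coding genes, and the members' share lay with those of the other repair lists.

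**Figure D4:**
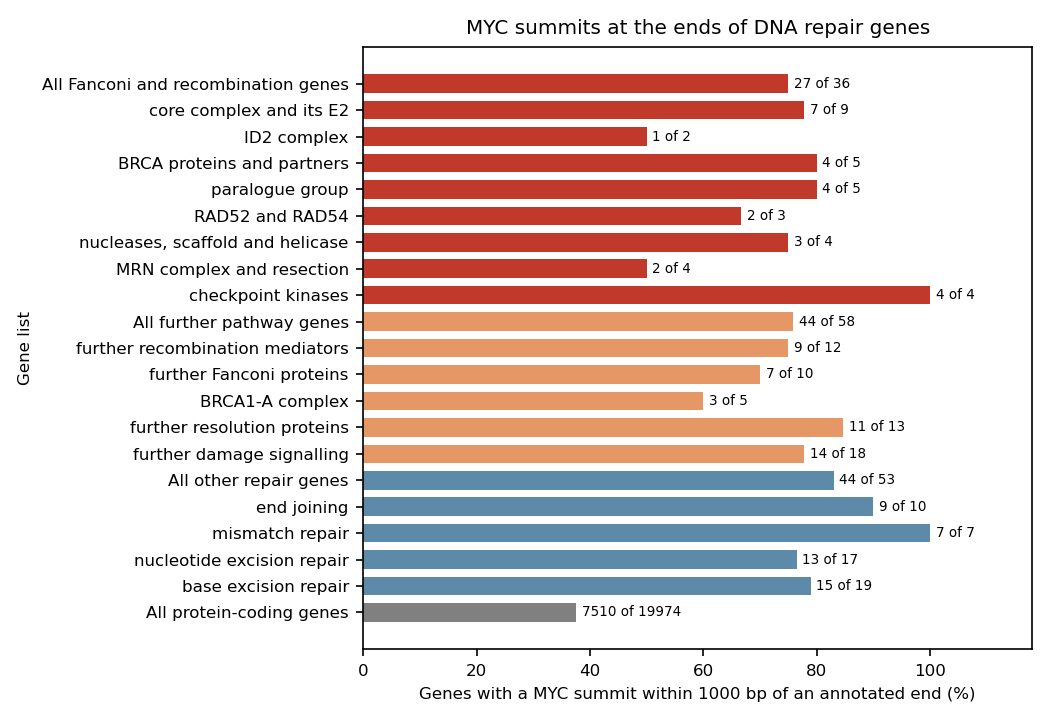
Share of genes (%) with a MYC summit within 1000 bp of an annotated end, for the members and their role groups (red), further pathway genes (orange), other repair genes (blue) and all protein-coding genes (grey). Every list lies above the 37.6% of all protein-coding genes, and the members, at 75%, lie beside the 75.9% of the further genes.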

How the data were processed

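MYC ChIP-Rx of U2OS cells was analysed from 1 deposited peak list, in a series of 2 IP libraries and 1 input library. Per the labels' protocols, fixation took 10 min in 1% formaldehyde, mouse cells made up 10%, and 5 ng of DNA per library went through 9 cycles of amplification. MACS2, Picard, SAMtools, Bowtie2 and cutadapt, and hg38, hg19 and mm10 as builds, stand in the submitters' processing notes without version or role. How the mouse reads scaled the values, and whether the libraries were pooled for peak calling, is not given in the sources used here. The deposited list is named for hg38 and holds the authors' fold enrichment (a linear ratio), their −log10 q-value for each summit, and a score left unused here.

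Genes, spans, starts, strands and promoter sequences came from RefSeq on GRCh38.p14. All 36 members matched by symbol, and 33 had a promoter entry (250 bases before to 50 after a start). A summit was set against gene spans (5000 bp), gene ends and listed starts (1000 bp each). A gene takes its strongest peak by −log10 q-value. Motifs were counted once per gene over all its listed starts. Distances from motif to summit used starts within 1000 bp of the summit, and were counted from the nearest base of the motif. The motifs bound by NF-Y and SP1 were added after the data were seen. The rules on gene spans and gene ends were tested on simulated summits, placed at or below the lower coordinate of a gene. The rule on listed starts, the strands and the motif distances were not tested in that way. Python 3.11.15, pandas 2.3.3 and numpy 2.4.6 were used.

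The members, lists and rules were chosen with earlier results of these data known. Named genes are all members, the 5 further pathway genes with the highest −log10 q-value, and neighbours with an end within 1000 bp of a member summit. 1 gene of the further pathway list is not reported here. No test was run, since the list has no values per library.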

Additional observations from a re-analysis of the deposited data

How the results depend on the processing

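No paired analysis was possible because the list has no values per library, and no replicate could be left out for the same reason. The number of members with a peak by the 5000 bp rule was 23 to 31 over the other settings (a reach of 1000 or 10000 bp, the stronger 50% of peaks, a −log10 q minimum of 10, overlap of the peak in place of its summit), against 27.7% to 50.9% of protein-coding genes, and that with a summit at a gene end 18 to 29 (windows of 500 and 5000 bp in place of the reach), against 21.3% to 44% of protein-coding genes. The stronger 50% of peaks left 25 of the 38 assigned peaks, 4248 of the 7510 protein-coding genes with a summit at an end, and 28 of the 44 further pathway genes. The median fold of the strongest assigned peak was 9.05 over 31 members and 7.23 over the 27 with a peak at a gene end, where assigned peaks away from the ends are left out. CACGTG stood in 3 of 33 members (9.09%), against 10.9% of all protein-coding genes with a promoter entry. When only the 150 bases before the start were searched, it stood in 1 member (3.03%), against 7.22% of those genes. With CACGCG counted as well, 7 members (21.2%) held either form, against 26.2%. Of the members, the outermost summit within the 5000 bp limit lay 2567 bp beyond RAD51B, and the nearest summit of a member without a peak lay 13580 bp from FANCD2. Depth is unknown, so a gene without a peak may carry MYC below what the peak calling could show.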
